A study of Mus with 6 samples.

Results

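The family of miR-15, miR-16, miR-195 and miR-497 was followed through 6 small RNA libraries of mouse adipocytes. Its members were taken by name, and no measured value entered the rule: mmu-miR-15a-5p, mmu-miR-15a-3p, mmu-miR-15b-5p, mmu-miR-15b-3p, mmu-miR-16-5p, mmu-miR-16-1-3p, mmu-miR-195a-5p and mmu-miR-497a-5p, written below without the prefix for the mouse. The related miR-322 and miR-503 were not counted as members. All 8 were listed in every table, among 929 known mature miRNAs common to the tables, and all 8 passed the filter on low counts. By their labels 3 libraries are controls and 3 come from cells under chronic intermittent hypoxia (CIH), in which oxygen drops again and again as it does in sleep apnoea. The adipocytes of both groups were wild type and of the C57BL/6 strain. The labels do not give age, fat depot or hypoxia schedule, nor whether each library had its own animal or culture. Spread, and with it every p-value, is thus that between libraries and may be technical.

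The 5p strands of this family are its guides, the strands loaded into Argonaute. They share a seed, the stretch near the 5′ end that pairs with target mRNAs, and so have largely the same targets. Known targets include the cyclins and kinases that move a cell from G1 into S phase, such as cyclin D1, cyclin E1 and CDK6, and the survival protein BCL2. The family is best known for the loss of miR-15a and miR-16-1 in chronic lymphocytic leukaemia and for halting the division of heart muscle cells after birth. In preadipocytes miR-15a has been reported to act on Dlk1, an inhibitor of adipocyte differentiation, and in cultured cells under hypoxia miR-15b and miR-16 have been reported to limit VEGF. The 3p arms are the opposite strands of the same hairpins and carry other seeds.

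The hairpins lie at 3 places on GRCm38, in a RefSeq table that gives gene spans but no exons. Mir16-1 (61631880 to 61631972) and Mir15a (61632027 to 61632110) lie 54 bases apart on chromosome 14, within the span of the long noncoding RNA Dleu2. Mir15b (69009772 to 69009835) and Mir16-2 (69009902 to 69009996) lie 66 bases apart on chromosome 3, within the span of Smc4, which encodes a condensin subunit. Mir497 (70234717 to 70234800), the hairpin of miR-497a, and Mir195a (70235042 to 70235135) lie 241 bases apart on chromosome 11. The sequence of miR-16-5p is made by both Mir16-1 and Mir16-2, so its counts pool these loci, while miR-16-1-3p comes from Mir16-1 alone.

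The libraries are called Ctrl1, Ctrl2 and Ctrl3 and CIH1, CIH2 and CIH3, after the labels. They held 6291101 to 11264151 counts each, and levels are given as CPM, counts per 1000000 of the whole library. At these depths 3 counts, used as a floor, equal 0.266 to 0.477 CPM. Ctrl3 and CIH3, the third pair below, stood apart from Ctrl1, Ctrl2, CIH1 and CIH2, the first set below. Tables of the third pair list 1186 names and those of the first set 1053. Beside an adjustment for group, 114 of 456 miRNAs differed between the third pair and the first set (25.0%; edgeR, adjusted p under 0.05). Under the scaling by trimmed mean of M-values (TMM), 52 of these were higher and 62 lower in the third pair, with total counts alone 17 and 43, and with RLE size factors 59 and 47. That count was 2 without Ctrl1 or without CIH2, 30 without Ctrl2, 34 without CIH1, 253 without Ctrl3 and 223 without CIH3. Each result is therefore given over all 6 libraries, in the first set and in the third pair, where a group is 1 library with no spread.

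The family was a small part of these libraries and miR-16-5p was most of it. The 8 members together held 868, 929 and 332 CPM in Ctrl1, Ctrl2 and Ctrl3 and 777, 726 and 1195 CPM in CIH1, CIH2 and CIH3. Ctrl3 was the lowest and CIH3 the highest of the 6, and the ranges of the groups overlapped. Counted as a share of all reads, the family took 0.0332% of Ctrl3, 0.119% of CIH3, and 0.0726% to 0.0929% of the other 4. The mean log2 difference of the summed level was 0.44 in favour of CIH, and without Ctrl3 it was -0.03.

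The guide strands come first, in order of abundance. miR-16-5p stood at 669, 749 and 153 CPM in Ctrl1, Ctrl2 and Ctrl3 and at 631, 542 and 811 CPM in CIH1, CIH2 and CIH3. The groups overlapped, with Ctrl3 far below the other 5. In order of level miR-16-5p ranked between 55 and 94 among the 929 known miRNAs. miR-15b-5p stood at 44.0, 38.7 and 15.9 CPM in control and 35.7, 39.8 and 117 CPM in CIH. The first set lay close together, with Ctrl3 below it and CIH3 above.

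miR-15a-5p, which shares a transcript with miR-16-1, was rarer. It stood at 20.7, 21.6 and 3.87 CPM in Ctrl1, Ctrl2 and Ctrl3 and at 11.3, 13.8 and 15.6 CPM in CIH. Ctrl1 and Ctrl2 lay above every CIH library, and Ctrl3 lay below them, at 32 counts. miR-195a-5p stood at 16.2, 14.3 and 3.39 CPM in control and at 9.81, 8.56 and 30.2 CPM in CIH. miR-497a-5p stood at 7.31, 5.86 and 0.726 CPM in control and at 3.27, 4.58 and 9.23 CPM in CIH. The lowest value of miR-497a-5p, in Ctrl3, rested on 6 counts. Both miRNAs of the chromosome 11 cluster had the same order: Ctrl3 lowest, CIH1 and CIH2 next, then Ctrl1 and Ctrl2, and CIH3 highest.

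Among the 3p arms, miR-16-1-3p was the most abundant. It stood at 90.3, 80.3 and 136 CPM in control and at 62.2, 99.6 and 189 CPM in CIH, and Ctrl3 and CIH3 were each the highest of their group. miR-15b-3p was nearly level, at 17.8, 17.5 and 19.9 CPM in control and at 22.2, 15.9 and 22.0 CPM in CIH. miR-15a-3p stood at 2.38, 2.26 and 0.484 CPM in control and at 0.682, 1.19 and 0.799 CPM in CIH, from 4 to 22 counts per library. Ctrl1 and Ctrl2 were the highest for miR-15a-3p and Ctrl3 the lowest. Ctrl3 was thus low for all 5 guides and for miR-15a-3p, and not for the other 3p arms. Levels of different miRNAs are read counts, and how evenly each is captured in library preparation was not tested.

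**Figure D1:**
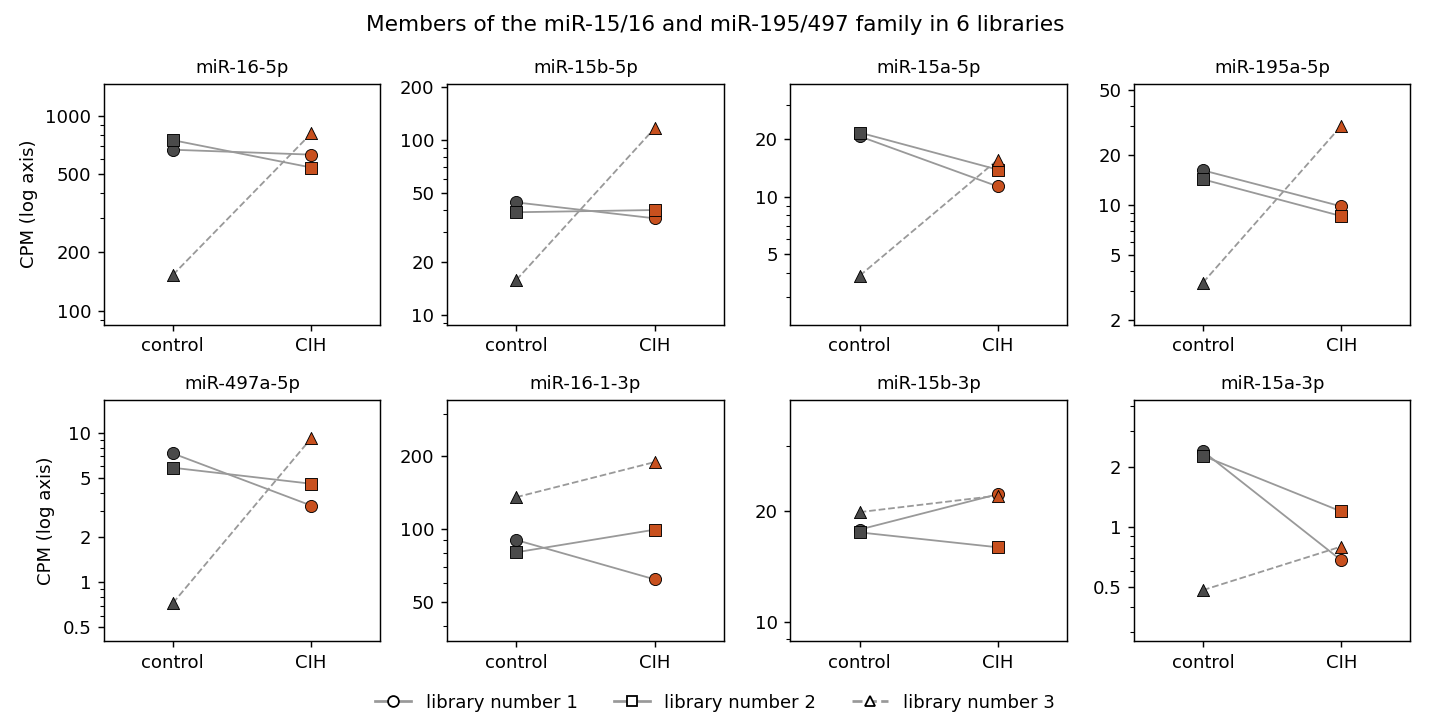
Level of each member in CPM (log axis, its own range in each panel) in the control and CIH libraries; each point is 1 library, and lines join Ctrl and CIH libraries of equal number (dashed for the third pair). In the 5 guide panels the third pair runs from the lowest to a higher value (153 to 811 CPM for miR-16-5p), while the lines of the first set run level or down.

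Over all 6 libraries 0 of the 8 members passed the test, against 0 of all 456 miRNAs tested (0%; edgeR quasi-likelihood test, with the p adjusted by Benjamini-Hochberg and called under 0.05). At an unadjusted p under 0.05 there were 23 miRNAs, and 37 with DESeq2, which also called 0. The member with the smallest p was miR-15b-5p, with means of 64.1 ± 45.6 CPM for CIH and 32.9 ± 14.96 CPM for control (± SD over 3 libraries each). Its log2 difference, CIH minus control, was 0.88 (SE 0.56, edgeR adjusted p = 0.899). miR-15a-3p followed, with a log2 difference of -0.90 (SE 0.65) at the same adjusted p. For miR-16-5p the means were 662 ± 137 CPM under CIH against 524 ± 324 CPM without it, and the log2 difference was 0.33 (SE 0.48, edgeR adjusted p = 0.970). For miR-195a-5p and miR-497a-5p the log2 differences were 0.49 (SE 0.65) and 0.34 (SE 0.73). The other 3, miR-15a-5p, miR-15b-3p and miR-16-1-3p, lay between -0.15 and -0.13. The median over the members was 0.10, and over all tested miRNAs 0.04. The CPM ranges of the groups overlapped for all 8 members, while they did not for 51 of the 456 (11.2%).

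Within the first set the guides stood level or lower in CIH, and none passed. Here 43 of 459 miRNAs were called (9.37%), 19 higher (4.14%) and 24 lower (5.23%; 7 and 27 with total counts alone), and 0 of the 8 members, with 0 of 8 at an unadjusted p under 0.05. Without 1 library that count ran from 6 (without Ctrl2) to 91 (without CIH2), with 14 without Ctrl1 and 23 without CIH1, and 0 members were called in any of these. The log2 difference of miR-195a-5p was -0.59 (SE 0.36, edgeR adjusted p = 0.369), that of miR-15a-5p -0.58 (SE 0.34, adjusted p = 0.350) and that of miR-497a-5p -0.55 (SE 0.40, adjusted p = 0.470). By CPM both CIH libraries lay below both control libraries in these 3, and also in miR-15a-3p and miR-16-5p. The share of all tested miRNAs with such a split was not counted, so no weight is placed on it. miR-15a-3p had the lowest value, -1.09 (SE 0.68, edgeR adjusted p = 0.391). For miR-16-5p the log2 difference was -0.14 (SE 0.21), which is close to the median of -0.03 over all 459. miR-15b-5p was at 0.03 (SE 0.31), miR-16-1-3p at 0.11 (SE 0.29) and miR-15b-3p at 0.24 (SE 0.33). The first 2 of these changed sign, to -0.13 and -0.076, with total counts alone.

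In the third pair the guides were higher in CIH. Scaled to file totals, the log2 differences were 2.41 for miR-16-5p, 2.84 for miR-15b-5p, 1.88 for miR-15a-5p, 2.98 for miR-195a-5p and 2.99 for miR-497a-5p. The median of all 456 tested miRNAs in that pair was 0.74 on the same scale. After TMM scaling that median was 0.05 and the guides stood at 1.60, 2.05, 1.14, 2.25 and 2.42 in the same order. The 3p arms differed by less: miR-16-1-3p, miR-15b-3p and miR-15a-3p stood at 0.48, 0.15 and 0.40 by file totals and at -0.32, -0.64 and -0.05 after TMM scaling, so their direction depends on the scaling. By file totals 8 of 8 members were higher in CIH in that pair, against 1 of 8 for CIH1 over Ctrl1 and 2 of 8 for CIH2 over Ctrl2. After TMM scaling the counts were 5, 1 and 3.

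**Figure D2:**
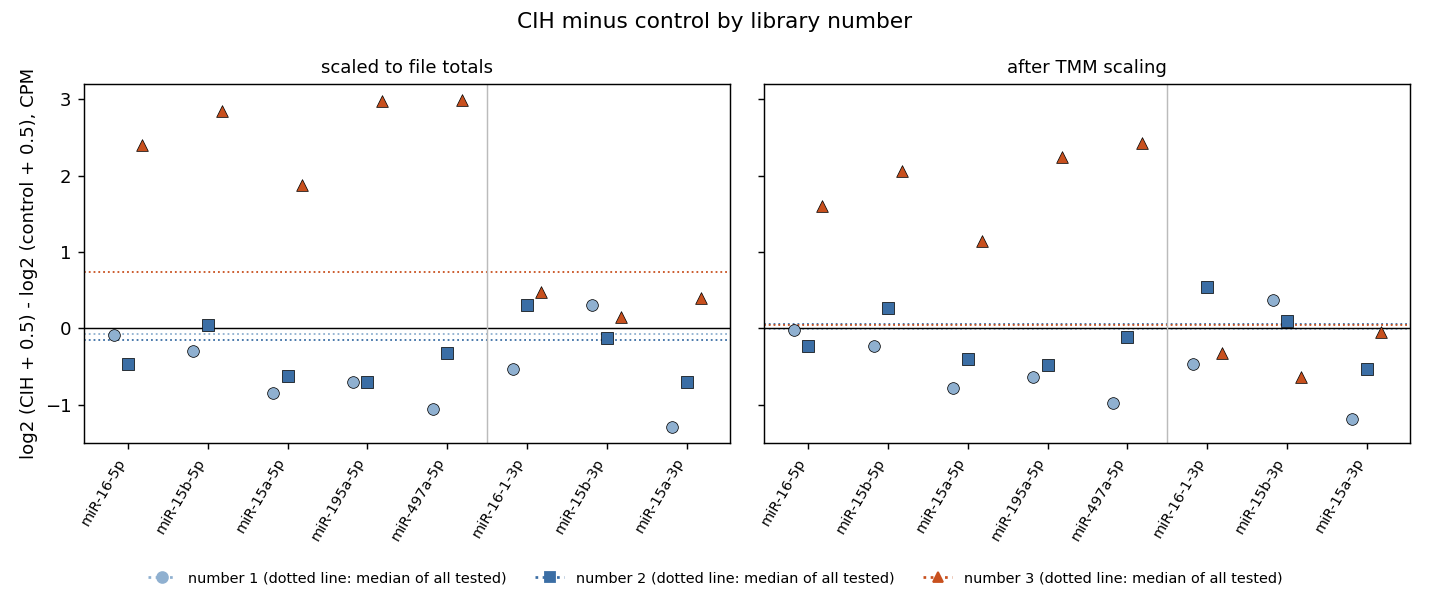
Difference between CIH and control on the log2 scale for each member in each numbered pair of libraries, with 0.5 CPM added, by file totals (left) and after TMM scaling (right); the grey line separates the 5 guides from the 3p arms, and dotted lines give the median of all 456 tested miRNAs. The guides of the third pair lie between 1.14 and 2.42 after TMM scaling, above every value of the first set.

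Whether the third pair differed from the rest was tested with an interaction of group and library set. It was called for 138 of 456 miRNAs (30.3%), 76 of them higher in that pair (16.7%) and 62 lower, with 137 higher and 21 lower under total counts alone. Of the 8 members 5 were called, all 5 guides and all higher. The excess over the first set was 3.40 on the log2 scale for miR-497a-5p (SE 0.82, edgeR adjusted p = 0.00173) and 2.93 for miR-195a-5p (SE 0.62, adjusted p = 0.000444). It was 2.04 for miR-15b-5p (SE 0.53, adjusted p = 0.00362), 1.74 for miR-16-5p (SE 0.37, adjusted p = 0.000444) and 1.79 for miR-15a-5p (SE 0.62, edgeR adjusted p = 0.0265). The 3p arms did not pass: miR-15a-3p stood at 1.01 (SE 1.38), miR-16-1-3p at -0.44 (SE 0.48) and miR-15b-3p at -0.90 (SE 0.56).

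The spread in this fit is that of the first set, and Ctrl3 and CIH3 are taken to vary by as much. Any way in which Ctrl3 and CIH3 differ is counted, so a different response to CIH cannot be told apart from a difference between 2 single libraries. Without Ctrl2 the count of members called was 3, as miR-15a-5p and miR-15b-5p no longer passed (edgeR adjusted p = 0.126 and 0.0535). miR-15a-5p also did not pass with DESeq2 (adjusted p = 0.0908) or without Ctrl1 (edgeR adjusted p = 0.0554), nor with a minimum mean of 10 CPM (edgeR adjusted p = 0.0702).

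Relatives by seed shared the pattern of the guides, and some stromal markers shared it in whole or in part. miR-322-5p, a guide with the same seed from the X chromosome, stood at 572, 554 and 43.0 CPM in Ctrl1, Ctrl2 and Ctrl3 and at 192, 216 and 819 CPM in CIH. miR-503-5p, from the same cluster and with a closely related seed, stood at 54.5, 40.3 and 2.30 CPM in control and at 9.40, 15.5 and 188 CPM in CIH. Within the first set both passed the test and fell, by 1.30 (SE 0.23) and 1.73 (SE 0.35) on the log2 scale. Of 5 stromal markers, miR-199a-3p, miR-199a-5p and miR-214-3p were also called in the interaction, with a larger difference between CIH and control in the third pair. Of all tested miRNAs 16.7% were called in that direction. Unlike the guides, miR-199a-5p was lowest in CIH1 (2040 CPM, against 2731 CPM in Ctrl3). In the interaction miR-145a-5p was at 0.87 and did not pass, and miR-143-3p, the most abundant of the 5, was at -0.68 (edgeR adjusted p = 0.161). The summed stromal level was 63644 CPM for Ctrl3 and 121813 CPM for CIH3, of which miR-143-3p held 57127 and 55147 CPM. The sums of the first set ran from 101869 to 147332 CPM, and the part of these markers in the guides' difference was not tested.

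miR-16-5p is abundant in red blood cells, so erythroid miRNAs were set beside it. miR-451a, the miRNA that defines red cells, stood at 129, 48.0 and 8.35 CPM in Ctrl1, Ctrl2 and Ctrl3 and at 106, 43.9 and 3.20 CPM in CIH. It was low in both libraries of the third pair, in CIH3, where miR-16-5p was highest, and in Ctrl3, where miR-16-5p was lowest. With group in the model miR-451a differed between the third pair and the first set by -3.43 on the log2 scale (SE 0.76, edgeR adjusted p = 0.0239). In each library miR-451a was below miR-16-5p. miR-144-3p and miR-144-5p were at 0.545 CPM or less in all 6. miR-486a-5p ran from 15.1 to 46.5 CPM, was highest in Ctrl3 and had an interaction of -2.53 (SE 0.59). The part of red cells in the level of miR-16-5p was not tested.

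In the make-up of the family Ctrl3 stood apart by its shares of miR-16-5p and miR-16-1-3p, and CIH3 by its share of miR-15b-5p. miR-16-5p held 77.1%, 80.6% and 45.9% of the family counts in Ctrl1, Ctrl2 and Ctrl3, and 81.3%, 74.7% and 67.9% in CIH. The share of miR-16-1-3p was 10.4%, 8.64% and 40.8% in control and 8.0%, 13.7% and 15.8% in CIH. In Ctrl3 the guide and the 3p strand of miR-16 were thus nearly level, at 1261 and 1120 counts. miR-15b-5p took 4.16% to 5.49% of the family in 5 libraries and 9.76% in CIH3. miR-195a-5p ran from 1.02% to 2.53%, miR-15a-5p from 1.17% to 2.38% and miR-497a-5p from 0.218% to 0.843%. The mean share of miR-16-5p was 74.6% ± 6.71 in CIH and 67.9% ± 19.1 in control (± SD over 3 libraries each), and the difference of 6.77 percentage points became -4.20 without Ctrl3.

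**Figure D3:**
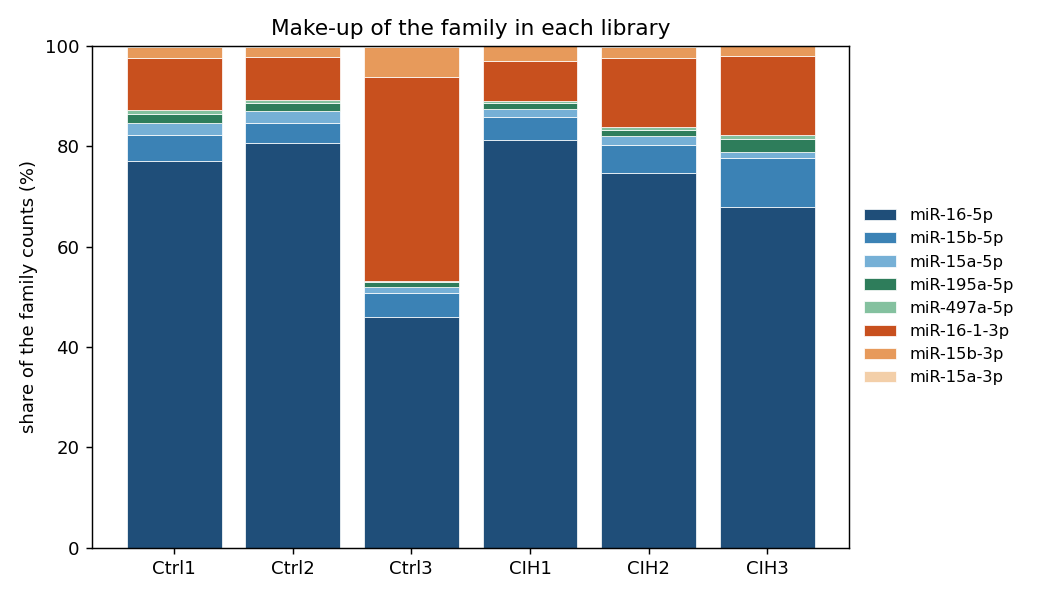
Share of each member in the summed counts of the family, in percent, for each library (stacked bars, 100% in all). miR-16-5p fills 67.9% to 81.3% of 5 bars and 45.9% of the bar of Ctrl3, where miR-16-1-3p fills 40.8%.

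With all libraries in the fit, miR-16-1-3p was the 1 member called between the library sets. Among all tested miRNAs 25.0% were called there (11.4% higher, 13.6% lower), so this call does not set the family apart. With group in the model miR-16-1-3p was higher in the third pair by 1.31 on the log2 scale (SE 0.35, edgeR adjusted p = 0.0384). It was the only member among the 114 called. The call was lost with total counts alone (0.96, edgeR adjusted p = 0.127), with a minimum mean of 10 CPM (1.14, adjusted p = 0.0606) and when any 1 library of the first set was left out (1.15 to 1.57). The guides had no common shift between the sets, since they were low in Ctrl3 and high or intermediate in CIH3. Without Ctrl3, 4 members were called, all higher in the remaining library, where 52.3% of all tested miRNAs were called (24.2% higher, 28.1% lower). Without CIH3 there were 6, where 47.5% of all were called (21.1% higher, 26.4% lower), and of the 6 miR-15a-5p, miR-16-5p, miR-195a-5p and miR-497a-5p were lower.

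The ratio of the arms was examined for each hairpin, since both arms come from the same precursor. For miR-16 this holds only in part, since miR-16-5p also comes from Mir16-2. For miR-15a the 5p to 3p ratio of counts was 8.67, 9.55 and 8 in control and 16.6, 11.6 and 19.6 in CIH, so every CIH library lay above every control library. The mean difference was 0.82 on the log2 scale, with a two-sided exact permutation p = 0.1, the smallest that 3 libraries against 3 allow (0.3 adjusted over 3 ratios). Of 120 hairpins with both arms tested, 11 had ranges that did not overlap (9.17%). The miR-15a-3p counts behind this ratio were 4 to 22 per library. For miR-15b the ratio was 2.47, 2.21 and 0.799 in control and 1.61, 2.50 and 5.30 in CIH, a log2 difference of 0.76 (two-sided exact permutation p = 0.4, adjusted 0.6). In Ctrl3 the 3p arm of miR-15b was the more abundant strand, and in the other 5 the guide was. The third ratio, that of miR-195a-5p to miR-497a-5p within their cluster, was 2.22, 2.44 and 4.67 in control and 3, 1.87 and 3.27 in CIH (log2 difference -0.13, two-sided exact permutation p = 0.8).

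miR-16-5p pools Mir16-1 and Mir16-2, so locus output and arm use cannot be told apart in the ratio of miR-16-5p to miR-16-1-3p. This ratio was 7.41, 9.32 and 1.13 in control and 10.2, 5.45 and 4.29 in CIH. In Ctrl3 its log2 value, less the median of the first set, was -2.88, and for miR-15b this shift was -1.55. Across 60 ratios with a mean of 10 CPM or more for both arms the median of this shift was -0.12. The shift of miR-16 was the 6th lowest of the 60 and that of miR-15b the 17th, so other hairpins shifted further. For miR-322 and miR-503 the shifts were -0.97 and -2.41. In CIH3 the shift was -0.95 for miR-16 and 1.18 for miR-15b, against a median of -0.13.

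**Figure D4:**
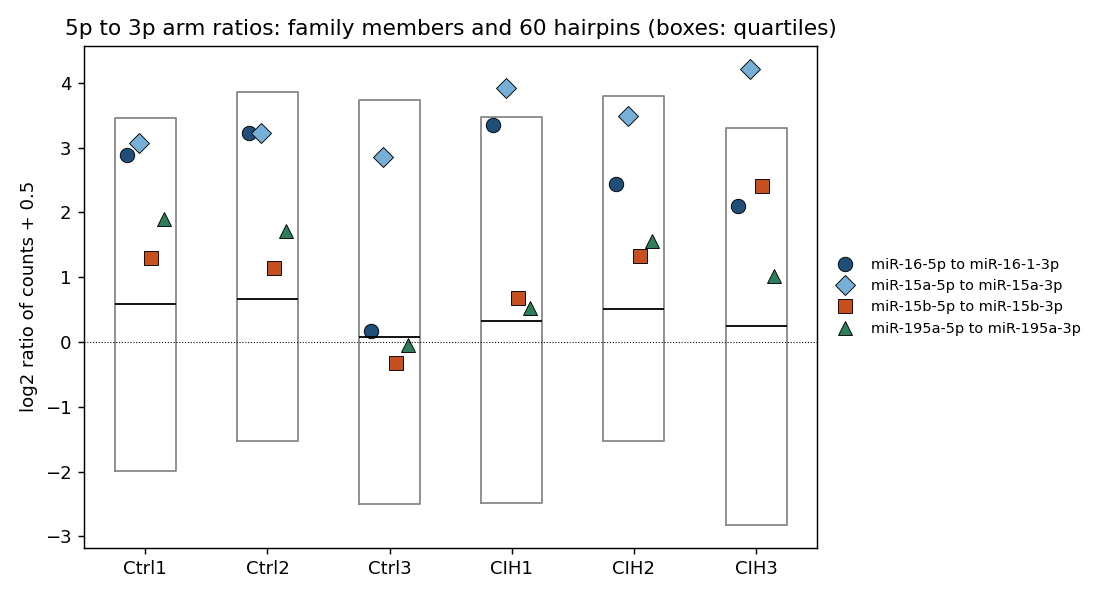
Ratio of 5p to 3p counts on the log2 scale (0.5 added) for 4 hairpins of the family in each library (points), over boxes that give the quartiles and the median of 60 arm ratios. The ratios of miR-16, miR-15b and miR-195a lie near 0 in Ctrl3 and above it in the other 5 libraries.

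Some arms of these hairpins are not among the members. miR-16-2-3p, the opposite strand of the chromosome 3 copy of miR-16, stood at 0.954, 0.103 and 0.484 CPM in control and at 1.64, 1.79 and 3.46 CPM in CIH. The groups did not overlap, as in 51 of the 456 tested miRNAs (11.2%). The log2 difference over 6 libraries was 2.02 (SE 0.82), with an edgeR unadjusted p of 0.0411 and an adjusted p of 0.833. These values rest on 6, 1 and 4 counts in control and 12, 18 and 39 in CIH, and that of Ctrl2 is under the floor of 3 counts. miR-195a-3p stood at 4.29, 4.32 and 3.51 CPM in control and at 6.82, 2.89 and 14.8 CPM in CIH, so the groups overlapped. In every library miR-195a-3p lay above the member miR-15a-3p, which ran from 0.484 to 2.38 CPM. miR-497b, which overlaps Mir497 in position, stayed between 0.597 and 1.95 CPM.

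The members were also set beside 20 other miRNAs known to act on cyclins and their kinases, among them the let-7, miR-34, miR-26 and miR-29 families. Of these 19 were tested. Over all 6 libraries 0 passed, with a median log2 difference of 0.04 against 0.10 for the members. Within the first set the median was -0.16 against -0.34, and 1 passed, miR-193b-3p, which was lower. In the interaction 6 of 19 were called, all with the larger difference in the third pair. Of all tested miRNAs 16.7% were called in that direction, and 30.3% in either. The 6 were let-7a-5p, let-7d-5p, let-7e-5p, miR-26a-5p, miR-29a-3p and miR-34a-5p. let-7a-5p had an excess of 1.68 (SE 0.36), close to that of miR-16-5p.

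Among 251 other miRNAs with a mean of 10 CPM or more, those most like a member were found by Pearson's r of log2 CPM over the 6 libraries, as a description. For miR-16-5p they were miR-652-3p (r = 0.991), miR-125b-5p (0.988) and miR-181b-5p (0.987). miR-652-3p stood at 73.3, 77.5 and 24.8 CPM in control and at 77.1, 57.7 and 81.4 CPM in CIH. For miR-195a-5p they were miR-503-5p (0.980), miR-322-3p (0.980) and let-7a-5p (0.974), and for miR-497a-5p they were miR-29a-3p (0.988), miR-322-5p (0.982) and miR-340-5p (0.975). All of these were lowest in Ctrl3, so this 1 library weighs heavily in each r. Within a library all miRNAs also share its depth and preparation.

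The remaining markers describe what the preparations held. The 4 adipocyte-linked miRNAs, none of which is found only in adipocytes, summed to 169440, 186219 and 103528 CPM in Ctrl1, Ctrl2 and Ctrl3 and to 145933, 125504 and 67386 CPM in CIH. The sum was lowest in CIH3, where 4 of the 5 guides were highest. Most of it in each library was miR-143-3p, which is also on the stromal list. miR-378a-3p ran from 38660 to 43593 CPM in control and stood at 29025, 25835 and 5624 CPM in CIH, with an interaction of -3.15 (SE 0.36, edgeR adjusted p = 3.1e-08), and the part of this in the guides' difference was not tested. Leukocyte miRNAs summed to 4.29 CPM or less in every library, with the defining miR-142a-3p at 0.477 CPM or less, endothelial ones to 33.8 to 137 CPM and muscle ones to 11.6 to 111 CPM. Epithelial miRNAs summed to 409, 334 and 76.3 CPM in Ctrl1, Ctrl2 and Ctrl3 and to 170, 126 and 18.6 CPM in CIH. Of this, miR-205-5p held 270, 253 and 67.8 CPM in control and 101, 75.2 and 1.86 CPM in CIH. By CPM miR-203-3p (6.66 and 7.55), miR-200a-3p (0.363 and 2.57), miR-200b-3p (0.969 and 3.99) and miR-200c-3p (0.484 and 2.57) were instead higher in CIH3 than in Ctrl3. The last 3 rested on 3, 8 and 4 counts in Ctrl3. In a bulk preparation fewer cells of a type and less of a miRNA per cell cannot be told apart.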

How the data were processed

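Small RNA of mouse adipocytes was sequenced in 3 control and 3 CIH libraries, 1 deposited table each. Each table deposited by the authors holds raw counts for mature miRNAs. In 3 tables the column is headed FPKM, but it holds whole numbers whose totals vary between libraries, and it was read as counts. Per the submitters' processing notes, tools were featureCounts 1.5.0-p3 and DESeq 1.8.3 and the build GRCm38, with no roles stated. How reads were trimmed, aligned and shared between near-identical guides is not stated in the labels.

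The 929 known names common to the tables (99.97% or more of each library) were tested with edgeR 4.0.16 in R 4.3.3 (quasi-likelihood F test, robust, TMM, filterByExpr, Benjamini-Hochberg at 0.05). SE values are the log2 difference divided by the root of F. Models held group (all 6 libraries, or those numbered 1 and 2), group and set, or their interaction. DESeq2 1.42.0, other scalings and filters, the replicate block and leaving out each library were alternatives. The code was tested on simulated counts. CPM used whole file totals; floors cover counting error only, since no molecular identifiers are described. Ratios were compared by exact permutation (scipy 1.17.1), and 0 columns of other samples were present.

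Libraries of the same number deviated together (r = 0.31, 0.34 and 0.41 over 456 miRNAs), and equal numbers form a block in the paired alternative. Across numbers 1 and 2 r was also positive, at 0.40 for Ctrl1 and CIH2 and 0.21 for Ctrl2 and CIH1. The values thus set number 3 apart but do not show a pairing within numbers 1 and 2. No library of a group repeated another within counting noise (chi-square over degrees of freedom at least 135). Members, lists, the first set as a comparison and the rule for named miRNAs (all members, seed relatives, other arms, erythroid miRNAs, the 3 most alike) were chosen with earlier results of these data known. The arm ratios over all hairpins and the share of miR-16-1-3p were examined after its values were seen. Symbols and positions came from RefSeq (GRCm38.p6).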

Additional observations from a re-analysis of the deposited data

Results flagged for a closer look

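In 5 members the difference between CIH and control was larger in the third pair than in the first set, by the interaction of group and set (edgeR). The excess on the log2 scale was 1.79 for miR-15a-5p, 2.04 for miR-15b-5p, 1.74 for miR-16-5p, 2.93 for miR-195a-5p and 3.40 for miR-497a-5p. The same was called higher for 16.7% of all tested miRNAs. The third pair holds 1 library per group, so a difference between these libraries and a difference in the effect of CIH cannot be told apart.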

How the results depend on the processing

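Within the family 0 members were called over all 6 libraries and 0 in the first set under every alternative run there, including the replicate block, which left 0 of 456 and gave 48 in place of 43 calls and changed no member's call. With a minimum mean of 10 CPM, 16 miRNAs were called in the first set, and leaving out 1 library gave 6 to 91. Between the third pair and the first set 60 were called with total counts alone, and 2 to 253 without 1 library. The members called there numbered 0 with total counts alone, 0 with the 10 CPM minimum and 0 to 6 without 1 library. In the interaction 3 members were called with that minimum, which removes miR-497a-5p and at which miR-15a-5p did not pass, and 3 to 5 without 1 library. Some signs depended on the setting, in values that did not pass. With total counts alone, the log2 differences of miR-15b-3p and miR-16-1-3p were 0.13 and 0.20 over 6 libraries, those of miR-15b-5p and miR-16-1-3p were -0.13 and -0.076 in the first set, and the interactions of miR-15b-3p and miR-16-1-3p were 0.039 and 0.56. Without 1 library, values over the others ran from -0.49 to 0.19 for miR-15a-5p, -0.28 to 0.31 for miR-15b-3p, -0.61 to 0.60 for miR-16-1-3p, -0.26 to 0.85 for miR-195a-5p and -0.11 to 0.75 for miR-497a-5p. In the first set they ran from -0.18 to 0.23 for miR-15b-5p, -0.28 to 0.088 for miR-16-5p and -0.43 to 0.51 for miR-16-1-3p. The interaction of miR-16-1-3p ran from -0.71 to 0.16, and the log2 ratio of miR-195a-5p to miR-497a-5p from -0.32 to 0.18. A library left alone in its group is taken to vary as much as the rest. The interaction could not be fitted without Ctrl3 or CIH3. The cause of these changes was not tested. Counts were low for miR-15a-3p and miR-16-2-3p, at 22 and 39 or fewer per library.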
